A study of Mus musculus with 34 samples.

Results

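Interferon response genes are the genes that a cell switches on after an interferon has bound its receptor. A set of 37 of them, from sensors of viral nucleic acid to antigen presentation, was followed through mouse liver tumors driven by c-Myc, by TGFα or by both, and through livers in which these transgenes had been turned off. The genes were chosen by name, and each was read at its brightest probe. All 37 were on the array, at 59 of its 41174 probes, among 27398 gene names. All 37 also passed the filter on dim probes, which left 21108 genes for testing.

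Type I interferons signal through a receptor whose kinases activate STAT2, which joins IRF9 in a complex that binds the interferon-stimulated response element (ISRE) of target genes. Interferon gamma acts through another element, the gamma-activated site (GAS), and drives IRF1, the immunity-related GTPases and the guanylate-binding proteins. In the liver, hepatocytes, Kupffer cells and endothelial cells all respond to interferons, and the response includes antigen presentation to T cells.

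Total RNA of each liver or tumor was labelled with Cy3 and hybridised to an Agilent mouse genome array together with a Cy5-labelled pool of C57BL/6 liver RNA from mice of both sexes. Each value below is the log2 ratio of the sample over that reference, so 0 is the level of the pool and 1 unit is a doubling. The series design names tumors against controls, and livers 4 or 12 weeks after shutdown against the tumors. Tumors carried c-Myc (7 arrays, called Myc tumors), TGFα (3) or both (3, called TGFα/c-Myc tumors), at end stage and with 0 weeks of doxycycline. The same 3 genotypes were sampled as livers whose transgene had been off for 4 or 12 weeks under doxycycline (3 arrays in each of the 6 groups). Control livers (3) carried no transgene and had 0 weeks of doxycycline, so no group shows doxycycline without a transgene. The labels call the samples biological replicates, although 1 number recurs in the identifiers of Myc tumors 3 and 4, and give neither sex nor age, and the sources used here do not give the promoter that drove the transgenes.

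Some arrays stood apart. TGFα tumor replicates 2 and 3 and TGFα off 4 weeks replicate 1 shared a slide on which neither channel had a liver profile. The median percentile of hepatocyte markers was 54.6 to 72.7 in Cy3 and 57.3 to 71.4 in Cy5 there, against 89.6 to 99.6 and 98.7 to 99.6 on the other 31 arrays. These 3 arrays were left out of every test, which left 1 TGFα tumor, for which no comparison was made. Between 43.7% and 71.8% of probes were well above background in Cy3. The SD of the log2 ratios over all genes tested ran from 0.30 to 1.14 between arrays. A second scanner and 4 scan days of their own belonged to Myc tumors 2 to 7, so for these arrays tumor and scan day cannot be told apart. No scan day held livers of both 4 and 12 weeks off, so 12 weeks could not be compared with 4 within a day. All 3 livers 12 weeks off both transgenes were on 1 slide, and all 3 livers 12 weeks off TGFα on another. Myc itself was between 1.04 and 6.25 in the Myc tumors and between -1.07 and 0.17 in the controls. Myc tumor replicate 5 (1.04) and TGFα/c-Myc tumor replicate 3 (0.83) were the lowest tumors, and TGFα tumor replicate 1, whose label names no c-Myc, read 3.28. The number of arrays limits the precision of every value.

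**Figure D1:**
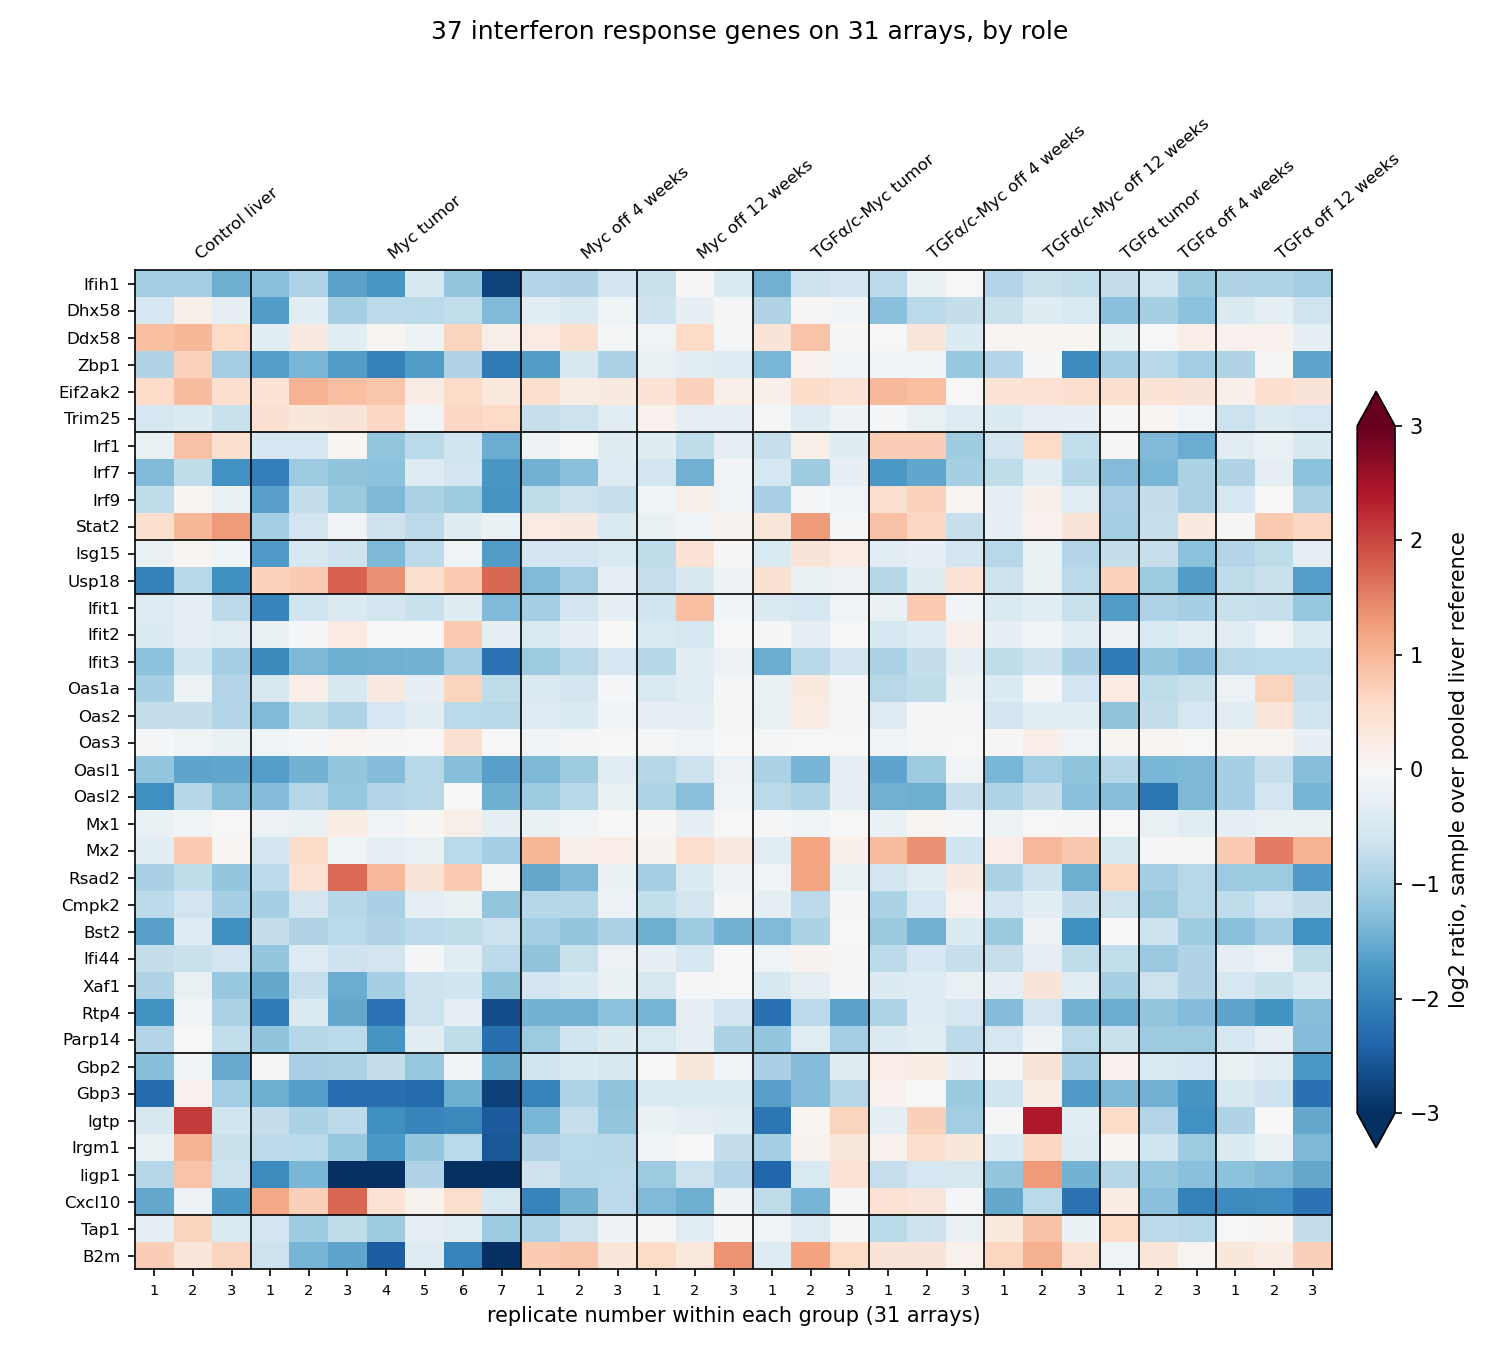
Log2 ratio of sample over pooled liver reference for the 37 genes (rows, divided by role) on the 31 arrays of the fit (columns, divided by group); red is above and blue below the reference, and the color scale ends at 3 in both directions. Usp18, Trim25, Cxcl10 and Rsad2 were redder in the 7 Myc tumors than in the controls, while B2m, Stat2, Irf9 and the GTPase genes were bluer.

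The Myc tumors did not move the interferon response genes in 1 direction. Against control livers, 4 of the 37 genes were higher and 13 were lower in limma's test at an adjusted p under 0.05 (Benjamini-Hochberg over all 21108 genes). Among all genes tested, 36.4% were called in this comparison, 19% higher and 17.3% lower, against 45.9% of the 37 (10.8% higher and 35.1% lower). The median log2 difference was -0.27 over the 37 and -0.01 over all genes, but 0.06 over the 37 with median centring and 0.11 when each array was scaled to the same spread. The genes that rose were Usp18, Cxcl10, Rsad2 and Trim25, and those that fell included B2m, Stat2, Irf9, Irf1 and 3 GTPase genes. In pieces of tumor or liver, fewer cells of a type and less RNA per cell cannot be told apart.

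How the 17 calls divided depended on the scaling. The division was 4 higher and 10 lower with the scanner's own log ratio in place of normexp and loess. It was 3 and 2 with median centring in place of loess, and 8 and 3 when each array was scaled to the same spread. With scan day as a block it was 1 and 10. Usp18, Trim25, Cxcl10, Rsad2, Stat2 and B2m each kept their call in 27 of 28 alternatives. Trim25 and Stat2 lost theirs with median centring, and the other 4 with scan day as a block. That block rests on the 1 day that held both groups, with 1 array of each (Myc tumor 1 and control 2), so it has little to test with. Under it Usp18 differed by 1.54 (adjusted p = 0.111), Cxcl10 by 1.33 (adjusted p = 0.267), B2m by -1.0 (adjusted p = 0.311) and Rsad2 by -0.02 (adjusted p = 0.988).

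The ISG15 system held the gene with the largest difference. Usp18, the protease that takes ISG15 off proteins and dampens signalling from the type I interferon receptor, read -2.02, -0.84 and -1.83 in the 3 controls. In the 7 Myc tumors it lay between 0.53 and 1.76 with a median of 0.79. No tumor overlapped the controls, and the difference was 2.66 (SE 0.33, adjusted p = 3.02e-06), which is 6.33-fold. Isg15 itself, the ubiquitin-like protein that Usp18 acts on, went the other way. It read -0.21, 0.07 and -0.13 in the controls and from -1.70 to -0.14 (median -0.78) in the tumors, a difference of -0.87 (SE 0.29, adjusted p = 0.0237). The highest Myc tumor overlapped the controls in Isg15, and the call was lost in 9 of 28 alternatives, among them the scanner's log ratio and the series matrix values.

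Of the 6 genes in the sensor group, 1 rose and 3 fell, with a median of -0.49. The 1 that rose, Trim25, acts on a sensor and is not itself one. Trim25, the ubiquitin ligase that acts on the RNA sensor RIG-I, read -0.50, -0.40 and -0.66 in the controls and from -0.08 to 0.63 (median 0.47) in the Myc tumors. The groups did not overlap, and Trim25 was 0.94 higher (SE 0.13, adjusted p = 1.16e-05). Zbp1, a sensor of Z-form nucleic acid, read -0.90, 0.69 and -1.03 in the controls and from -2.11 to -0.89 in the tumors. Zbp1 was 1.21 lower on the log2 scale (difference -1.21, SE 0.42, adjusted p = 0.027), but control 2 alone was above 0 and the call was lost without it. Ddx58, which encodes RIG-I, read 0.90, 0.99 and 0.60 in the controls and from -0.33 to 0.66 in the tumors, and the highest tumor overlapped the lowest control. The difference was -0.77 (SE 0.21, adjusted p = 0.00594). Its probes disagreed: the other 3 probes of Ddx58 had differences of 0.09, 0.69 and 0.10, and the mean over probes was 0.03. Dhx58, which encodes the related helicase LGP2, had a difference of -0.73 (SE 0.22, adjusted p = 0.0133) and overlapped the controls. Ifih1, which encodes the RNA sensor MDA5, and Eif2ak2, which encodes the kinase PKR, did not pass the test, with differences of -0.25 and -0.06.

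Among the 4 transcription factors 3 fell, with a median of -1.01. Stat2 read 0.48, 1.00 and 1.27 in the controls, and from -1.02 to -0.12 (median -0.58) in the Myc tumors. All 7 tumors were below all 3 controls, by a mean difference of -1.44 (SE 0.31, adjusted p = 0.000911). Irf9, its partner in the ISRE-binding complex, read -0.76, 0.05 and -0.22 in the controls and from -1.76 to -0.72 (median -1.11) in the tumors. The difference was -0.91 (SE 0.23, adjusted p = 0.00373), with 1 tumor reaching the range of the controls; a second probe of Irf9, well above background on 17 of the 31 arrays, had a difference of 0.10. Irf1 read -0.22, 0.89 and 0.48 in the controls and from -1.49 to 0.05 in the tumors, a difference of -1.11 (SE 0.35, adjusted p = 0.016) with overlap; its other probe, well above background on all 31 arrays, had a difference of -0.08. Irf7, the factor that amplifies type I interferon production, did not pass the test (0.12).

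Of the 17 antiviral effectors, 1 rose and 1 fell, and their median difference of 0.06 was close to that of all genes. Rsad2, the gene of viperin, an enzyme that makes a chain-terminating nucleotide, read -0.96, -0.76 and -1.16 in the controls. In the Myc tumors Rsad2 ran from -0.78 (tumor 1) to 1.69 with a median of 0.44, so that tumor 1 lay within the controls and the other 6 above them. The difference was 1.45 (SE 0.39, adjusted p = 0.00543). Ifit3, an RNA-binding antiviral protein, was lower by a smaller amount (-0.60, SE 0.22, adjusted p = 0.0346) and lost its call in 10 of 28 alternatives and its sign in 1 more. The remaining 15, among them Ifit1, Oas1a, Oas2, Mx1, Mx2 and Bst2, did not pass the test. Mx1 and Oas3 were near background, being well above it on 11 and 13 of the 31 arrays.

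The 6 genes of the interferon gamma group split within the group, as 1 rose and 3 fell. Cxcl10, a chemokine that draws in T cells, read -1.54, -0.18 and -1.71 in the controls and from -0.47 to 1.73 (median 0.52) in the Myc tumors. Control 2 lay inside the tumor range, and the difference was 1.74 (SE 0.42, adjusted p = 0.00246). Iigp1, an immunity-related GTPase, read -0.86, 0.85 and -0.65 in the controls and from -5.24 to -0.90 (median -2.99) in the tumors. This was the widest range of the 37 genes among the tumors, with the groups apart by little, and the difference was -2.58 (SE 0.72, adjusted p = 0.00675). The reference channel of Iigp1 was saturated on 4 of the 31 arrays, 1 of them control 3. Igtp, of the same family, read -0.48, 2.09 and -0.59 in the controls and from -2.49 to -0.71 in the tumors (difference -1.87, SE 0.64, adjusted p = 0.0249). Irgm1, a GTPase that regulates the other 2, read -0.23, 1.03 and -0.66 in the controls and from -2.54 to -0.78 in the tumors (difference -1.32, SE 0.38, adjusted p = 0.00873). In all 3 genes the groups did not overlap, and control 2 was the only control above 0. Without control 2 the calls of Igtp, Irgm1, Iigp1, Zbp1, Irf1, Isg15, Dhx58, Ifit3 and Tap1 were lost, and the count was 5 higher and 4 lower.

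Both genes of antigen presentation fell. B2m, the light chain of MHC class I molecules, read 0.73, 0.35 and 0.68 in the controls and from -3.20 to -0.39 (median -1.57) in the Myc tumors. All 7 tumors lay below all controls, and the difference was -2.26 (SE 0.42, adjusted p = 0.000208), a 4.79-fold lower level. Its other 2 probes had differences of -2.50 and -0.92. B2m was saturated in Cy3 on 4 arrays, all of livers with a transgene off, and in Cy5, the reference, on 6, among them control 3 and Myc tumors 1 and 5. Ratios of B2m on these arrays, and the differences that use them here and below, are therefore limited by the scanner's range. Tap1, a subunit of the peptide transporter, was lower by less (-0.72, SE 0.25, adjusted p = 0.0295), and its call was lost in 12 of 28 alternatives.

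**Figure D2:**
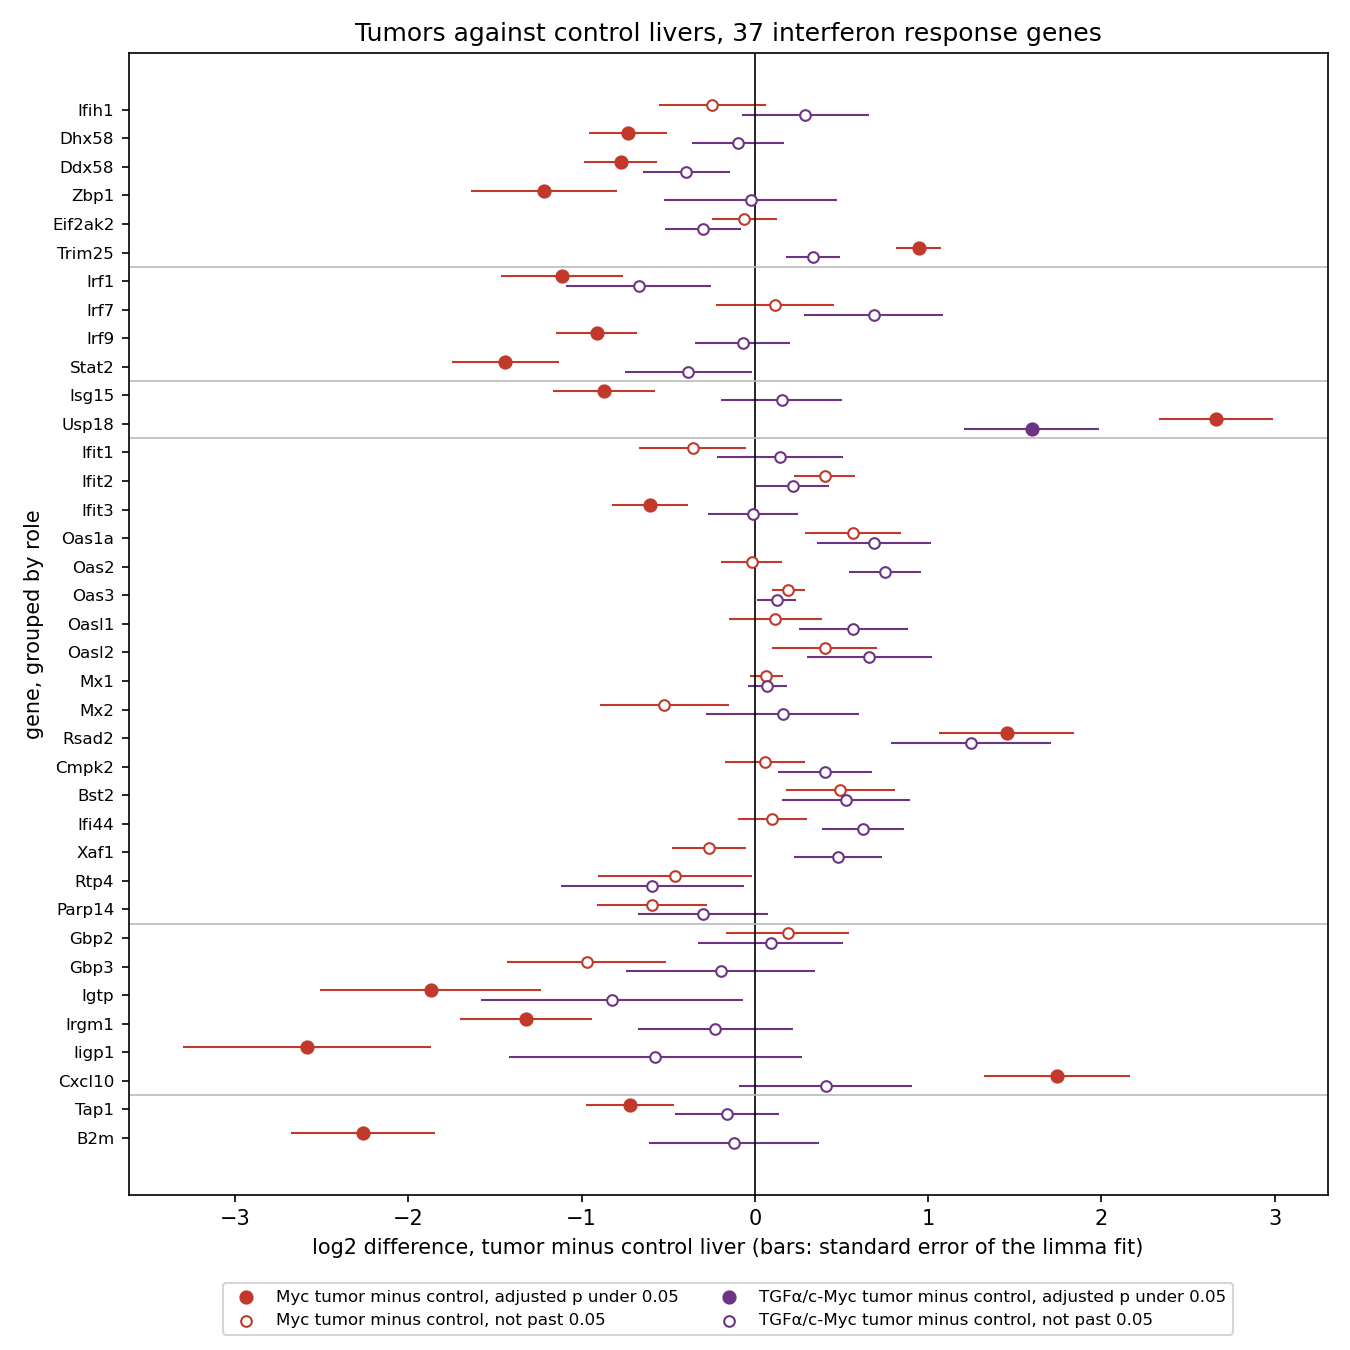
Log2 difference between tumors and control livers for the 37 genes, grouped by role; red is Myc tumor (7 arrays) and purple TGFα/c-Myc tumor (3) against the same 3 controls, points are the fitted differences, bars their standard errors, and filled points passed an adjusted p of 0.05. Of the Myc tumor values 17 are filled (4 to the right and 13 to the left of 0), of the TGFα/c-Myc tumor values only Usp18.

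The promoters of 7 called genes are shown because genes with the same interferon element moved in opposite directions. Each is the 250 bases before the transcription start, 5′ to 3′ on the strand of the gene, from RefSeq on mouse build GRCm38.p6. Of the 37 genes, 28 were in the promoter table. The motifs were searched on both strands, overlapping matches included: GAAA, 2 bases of any kind and again GAAA as the core of the ISRE, TTCNNNGAA as the GAS, and CACGTG, the E-box that Myc binds with its partner Max. Matches are in capitals.
Cxcl10 (higher, chr5:92348890-92349139, minus strand): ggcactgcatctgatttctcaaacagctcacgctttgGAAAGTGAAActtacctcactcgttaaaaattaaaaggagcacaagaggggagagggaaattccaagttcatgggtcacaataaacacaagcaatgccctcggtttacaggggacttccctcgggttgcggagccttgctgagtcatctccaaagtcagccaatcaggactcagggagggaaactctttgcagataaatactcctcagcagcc
Rsad2 (higher, chr12:26456453-26456702, minus strand): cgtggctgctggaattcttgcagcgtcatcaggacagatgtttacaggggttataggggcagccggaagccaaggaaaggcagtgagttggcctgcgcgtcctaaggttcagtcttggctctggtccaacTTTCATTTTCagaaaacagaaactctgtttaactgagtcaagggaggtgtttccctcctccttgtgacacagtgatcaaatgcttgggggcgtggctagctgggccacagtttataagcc
Trim25 (higher, chr11:88999153-88999402, plus strand): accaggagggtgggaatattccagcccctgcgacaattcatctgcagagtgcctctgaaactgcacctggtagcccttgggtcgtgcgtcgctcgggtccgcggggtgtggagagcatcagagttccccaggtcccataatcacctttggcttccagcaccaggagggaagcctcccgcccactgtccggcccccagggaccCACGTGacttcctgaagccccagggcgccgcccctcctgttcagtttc
B2m (lower, chr2:122147437-122147686, plus strand): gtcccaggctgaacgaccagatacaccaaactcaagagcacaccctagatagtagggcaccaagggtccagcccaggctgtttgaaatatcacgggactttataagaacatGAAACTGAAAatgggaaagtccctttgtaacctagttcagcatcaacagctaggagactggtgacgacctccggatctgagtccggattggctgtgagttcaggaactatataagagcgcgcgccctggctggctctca
Stat2 (lower, chr10:128270248-128270497, plus strand): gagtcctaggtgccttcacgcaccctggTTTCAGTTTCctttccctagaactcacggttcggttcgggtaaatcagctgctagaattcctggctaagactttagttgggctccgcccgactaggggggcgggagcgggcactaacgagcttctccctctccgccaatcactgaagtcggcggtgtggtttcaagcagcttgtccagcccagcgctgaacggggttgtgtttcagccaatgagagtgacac
Igtp (lower, chr11:58199306-58199555, plus strand): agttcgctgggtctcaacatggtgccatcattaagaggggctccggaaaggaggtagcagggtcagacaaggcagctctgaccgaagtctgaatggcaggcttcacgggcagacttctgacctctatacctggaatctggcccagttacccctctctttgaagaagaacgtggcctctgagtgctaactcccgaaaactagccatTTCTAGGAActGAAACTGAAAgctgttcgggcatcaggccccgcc
Irgm1 (lower, chr11:48871421-48871670, minus strand): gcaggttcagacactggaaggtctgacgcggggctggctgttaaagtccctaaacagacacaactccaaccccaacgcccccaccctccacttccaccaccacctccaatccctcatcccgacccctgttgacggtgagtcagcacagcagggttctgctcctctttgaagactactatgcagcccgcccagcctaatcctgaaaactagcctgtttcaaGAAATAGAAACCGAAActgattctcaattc

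The ISRE core was found in 14 of the 28 genes, against 3.46% of the 27025 genes of the table. The GAS was found in 6 of the 28, against 8.13% of all genes, and the E-box in 1, against 6.86%. Of the called genes in the table, the ISRE core stood before 2 of the 3 that were higher in Myc tumors (Cxcl10 and Rsad2) and before 6 of the 10 that were lower (Stat2, Isg15, Ifit3, Igtp, Irgm1 and B2m). In Igtp the GAS ends a pair of bases before the ISRE core, and in Irgm1 a pair of ISRE cores overlap. Trim25 had the E-box and no ISRE core in this window. A match is a description of letters and no evidence of binding.

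The neighbouring genes of the pathway, grouped by their place in it, also moved in both directions in the Myc tumors. Of all genes tested, 19% were higher and 17.3% lower in this comparison. Calls in both directions are therefore no result about these lists or those of the next paragraph. Of 19 further genes of antigen presentation, 10 fell and none rose (median -0.82), among them H2-T23, a nonclassical class I gene (-1.68, SE 0.33, adjusted p = 0.000423). Tap2, the partner of Tap1, fell by 1.16 on the log2 scale (adjusted p = 0.000871), Psmb9, an immunoproteasome subunit, by 1.78 (adjusted p = 0.0016) and Tapbp, which loads peptides, by 1.16 (adjusted p = 0.00218). Of 12 signal transducers, factors and inhibitors, 6 fell and 1 rose. Adar, the RNA-editing enzyme that restrains RNA sensing, fell by 0.76 (adjusted p = 7.33e-05), Irf3, the factor activated by the sensors, by 0.61 (adjusted p = 0.00232) and Irf5 by 0.96 (adjusted p = 0.00292), while Ptpn2, a phosphatase of the pathway, was 0.83 higher (adjusted p = 0.000409).

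Among 9 receptor and kinase genes, 3 rose and 1 fell: Il10rb (1.48) and Il28ra (1.03), the chains of the type III interferon receptor, and Ifngr2 (0.56) were higher, and Ifnar2, a chain of the type I receptor, was lower (-0.92). The adjusted p-values in limma were 0.000118, 0.000409, 0.0283 and 0.00475. Of 15 upstream sensors 4 rose and 4 fell, with Tlr7 (1.29) and Tbk1 (0.74) higher and Tlr9 (-1.14) and Myd88 (-0.60) lower. Of 31 further response genes, 4 rose and 10 fell, with Isg20, a ribonuclease, highest (1.89, adjusted p = 5.37e-05) and Nmi (-1.37), Ifi35 (-0.59) and the chemokine gene Cxcl11 (-1.12) lower. None of the 9 interferon ligand genes that could be tested was called, with 1 higher and 2 lower at an unadjusted p under 0.05. Ifng, the gene of interferon gamma, differed by -0.10 (SE 0.10, adjusted p = 0.46). Another 4 ligand genes on the array, Ifnb1 included, did not pass the filter on dim probes.

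Markers of other cells moved in the same comparison, in which 36.4% of all genes were called. Of 8 hepatocyte markers 7 were lower and none higher in Myc tumors, and their mean log2 ratio was between -3.29 and -1.11 in the tumors and between -0.26 and -0.08 in the controls. Endothelial markers were lower in 5 of 10 and higher in 1 (tumors -2.02 to -0.81, controls -0.41 to -0.18), and neutrophil markers were higher in 7 of 9 (tumors 0.37 to 2.03, controls 0.19 to 0.31). Kupffer cell and macrophage markers divided, 4 higher and 5 lower of 13, with Clec4f (-4.31) and Marco (-4.08) lowest and Cd68 (2.12) highest. T and NK cell markers were higher in 3 and lower in 2 of 13, those of B cells lower in 2 of 7, and of 6 dendritic cell markers 1 was higher, Itgax. Bst2, which is also an interferon response gene, stands in the dendritic list. Cell cycle genes were higher in 8 of 9. Among the hepatocyte, endothelial, neutrophil and Kupffer lists no gene was near background on all Myc tumor arrays. The part of these cells in the differences of the interferon response genes was not tested.

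The TGFα/c-Myc tumors, against the same controls, had 1 of the 37 genes called, Usp18, where 2.18% of all genes were called. Usp18 read 0.46, -0.19 and -0.18 in these tumors, all above the highest control (-0.84), and the difference was 1.60 (SE 0.39, adjusted p = 0.028). The other 36 did not pass, and 6 of the 37, all higher, had an unadjusted p under 0.05. The next in order of p was Oas2, an oligoadenylate synthetase, at -0.22, 0.22 and -0.06 against -0.72, -0.72 and -0.88 (difference 0.75, SE 0.21, adjusted p = 0.0594). The 37 had a median of 0.13, against 0.00 over all genes. The sign of this median depended on the processing. It was -0.15 with the scanner's log ratio, -0.10 with the sample channel alone and -0.02 without background subtraction or with median centring. With the series matrix it was -0.23 (all genes -0.18). It was 0.14 with the stricter filter on dim probes and 0.11 with the mean of a gene's probes. The call of Usp18 was lost in 7 of 23 alternatives, among them without TGFα/c-Myc tumor 1, control 1 or control 3, and with both tumors of low Myc left out 2 genes were called. In these tumors hepatocyte markers ranged from -1.40 to -0.30 and neutrophil markers from 0.04 to 0.28, and neither list had a called gene. The other cell lists, cell cycle genes apart (5 of 9 higher), had none either. Of the 9 neutrophil markers, 4 were not well above background on any array of these tumors.

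Compared directly, the tumor genotypes differed in 13 of the 37 genes, with 10 higher and 3 lower in TGFα/c-Myc tumors; 25.2% of all genes were called, 12% higher and 13.2% lower. The median over the 37 was 0.50, against 0.00 over all genes. It was 0.23 with the scanner's log ratio, 0.10 with the sample channel alone and 0.02 with median centring (all genes -0.22). B2m read -0.38, 1.20 and 0.58 in TGFα/c-Myc tumors, all at or above the highest Myc tumor (-0.39), and was 2.14 higher (SE 0.42, adjusted p = 0.000823). Stat2 read 0.36, 1.28 and -0.05, above all 7 Myc tumors (difference 1.06, SE 0.31, adjusted p = 0.015), and Irf9 was 0.84 higher with overlap (adjusted p = 0.0107). Isg15, Dhx58, Zbp1, Xaf1, Irgm1 and Iigp1 were also higher, as was Oas2 (0.77, SE 0.18, adjusted p = 0.00315), whose groups did not overlap. Many of these calls depended on the setting. Of 28 alternatives, Zbp1 and Iigp1 kept theirs in 8, Dhx58 in 11, Irgm1 in 13 and Irf9 in 16. Isg15 and Xaf1 kept theirs in 17, Oas2 in 21, Stat2 in 23 and B2m in 25.

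Lower in the TGFα/c-Myc tumors were Usp18 (-1.06, SE 0.33, adjusted p = 0.02), Cxcl10 (-1.33, SE 0.42, adjusted p = 0.0231) and Trim25 (-0.61, SE 0.13, adjusted p = 0.00194). Usp18 was below every Myc tumor, while Cxcl10 and Trim25 overlapped them. Of 28 alternatives, Usp18 kept its call in 17, Cxcl10 in 22 and Trim25 in 26. With Myc tumors 3 and 4 averaged as 1 sample the calls of Zbp1, Irgm1 and Iigp1 were lost. The count was 3 without TGFα/c-Myc tumor replicate 2 and 5 without replicate 3, and with scan day as a block none of the 37 was called. It was 1 with median centring, and the division was 5 and 2 with the scanner's log ratio and 1 and 1 with each array scaled to the same spread. Hepatocyte markers were higher in 4 of 8 and endothelial markers in 7 of 10 in this comparison, and neutrophil markers lower in 7 of 9. Of these 9, 4 were not well above background on any TGFα/c-Myc tumor array. The part of these cells in the comparison was not tested.

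**Figure D3:**
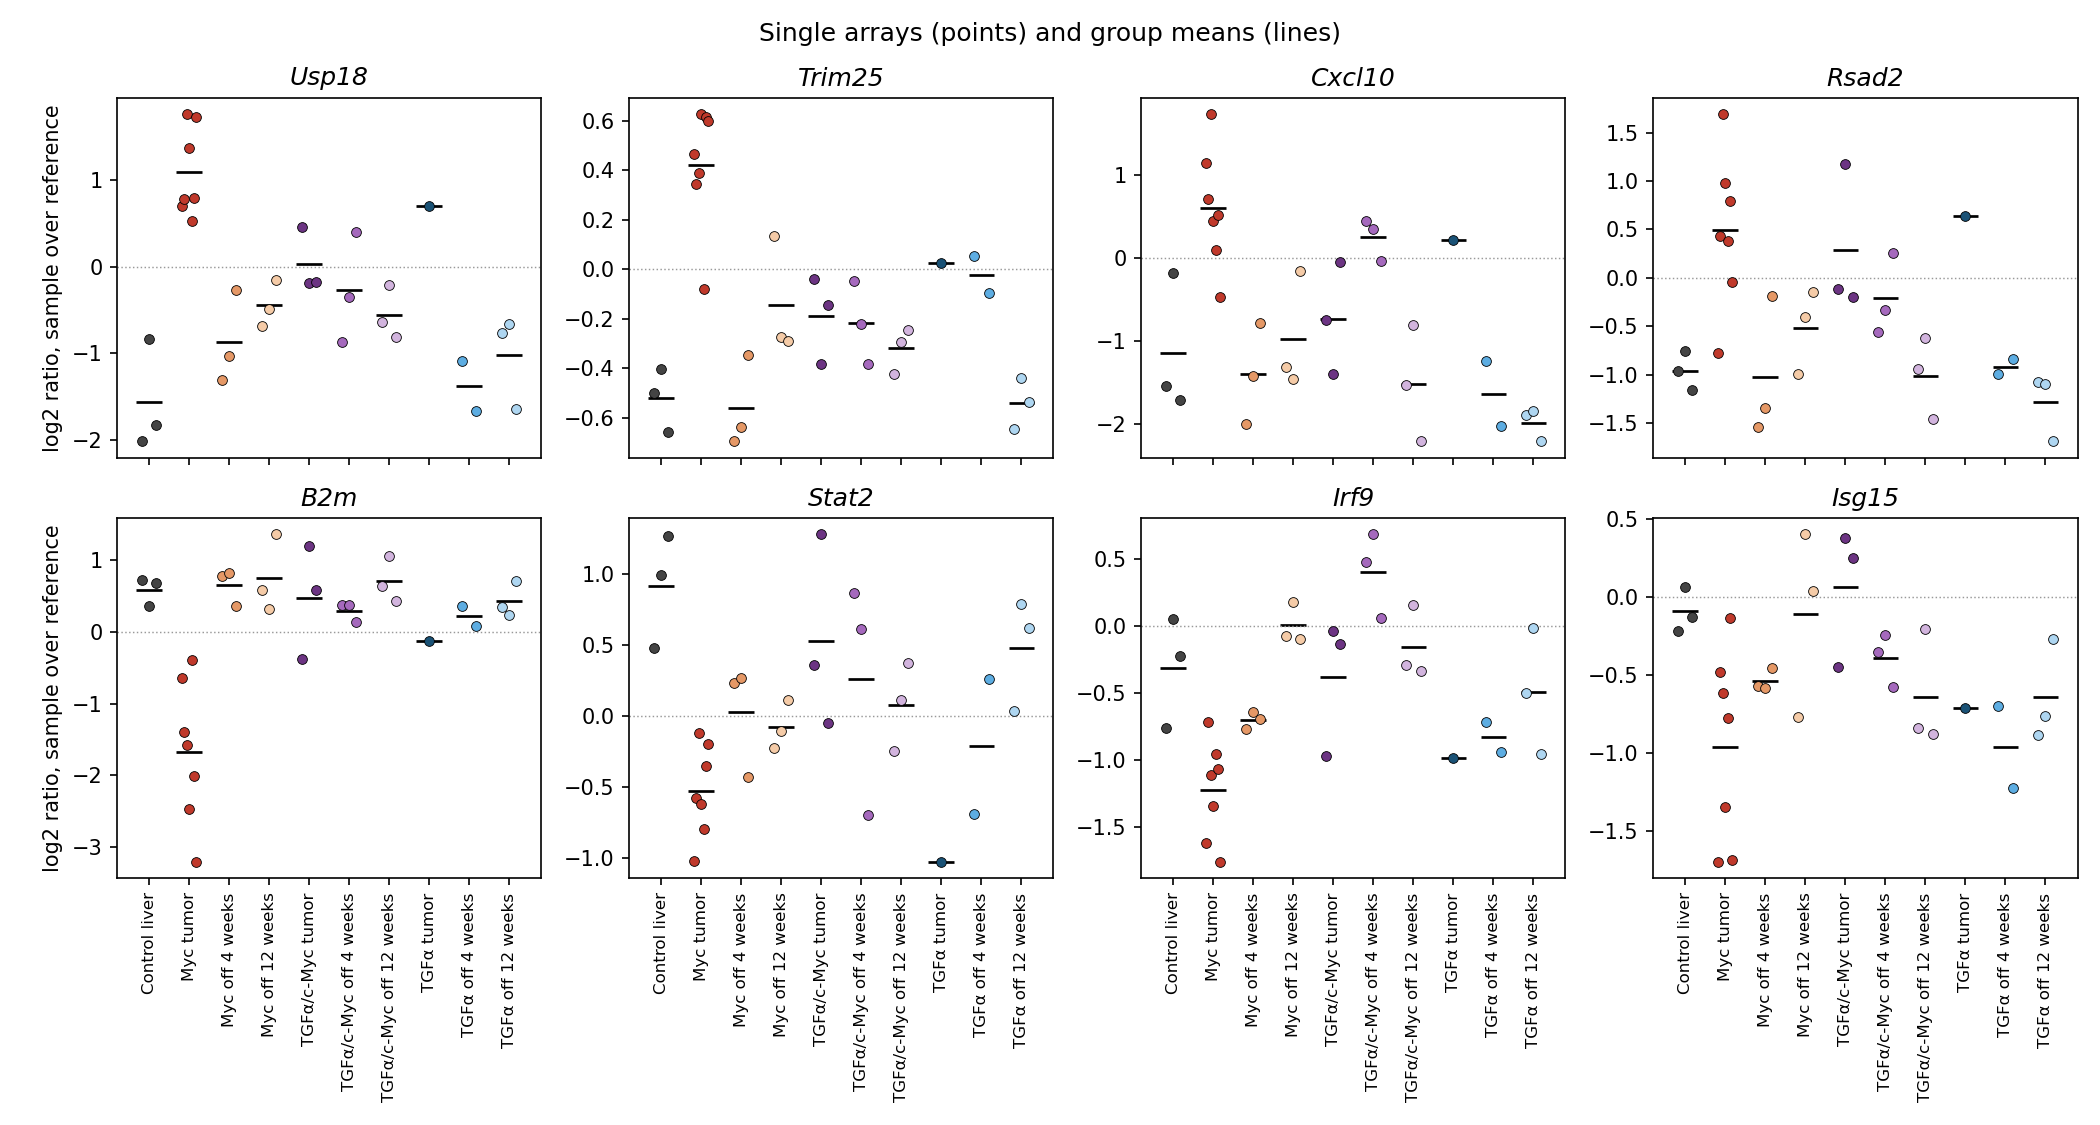
Log2 ratio of sample over reference (vertical axes, separate scales) for 8 genes on the 31 arrays; each point is 1 array, each line a group mean. Usp18 in Myc tumors lies between 0.53 and 1.76, above every control and every liver with a transgene off, and B2m in Myc tumors lies between -3.20 and -0.39, below all of those.

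Livers in which c-Myc had been off for 4 weeks differed from the Myc tumors in 10 of the 37 genes, 6 higher and 4 lower, where 32.2% of all genes were called (14.4% higher and 17.9% lower). The median over the 37 was 0.29, against 0.00 over all genes. It was 0.33 with the scanner's log ratio, but -0.03 with the sample channel alone and -0.13 with median centring (all genes -0.12). The tumors are the same 7 arrays as above, so the values below are not independent of the tumor comparisons. Usp18 read -1.31, -1.04 and -0.27 after 4 weeks, below all tumors, a difference of -1.97 (SE 0.33, adjusted p = 0.000103). Cxcl10 read -2.0, -1.42 and -0.79, also below all tumors (-2.0, SE 0.42, adjusted p = 0.000888). These 2 calls held in all 28 alternatives. Trim25 (-0.98, SE 0.13, adjusted p = 1.12e-05) and Rsad2 (-1.52, SE 0.39, adjusted p = 0.0044) were lower too. B2m read 0.78, 0.82 and 0.36, above all tumors (2.33, SE 0.42, adjusted p = 0.000197), with saturation on the last 2 of these arrays; its other 2 probes had differences of 2.34 and 0.77. Iigp1 was 2.04 higher (SE 0.72, adjusted p = 0.0315), and Dhx58, Ifit3, Oas2 and Xaf1 were higher by 0.50 to 0.75. Of the 28 alternatives, Oas2 kept its call in 14, Xaf1 in 15, Iigp1 in 16, Dhx58 in 18 and Ifit3 in 19.

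Stat2 (0.55), Irf9 (0.52) and Isg15 (0.43) did not pass the test. Myc off 4 weeks replicate 3 had narrow ratios over all genes (SD 0.31), and without it 5 of the 37 were called. The division of 6 and 4 was 2 and 4 with the scanner's log ratio, 1 and 3 with median centring, 4 and 5 with the sample channel alone and 1 and 5 at equal spread. All 8 hepatocyte markers and 7 of 10 endothelial markers were higher after 4 weeks, and 5 of 9 neutrophil markers lower.

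After 12 weeks without c-Myc, 17 of the 37 differed from the Myc tumors, 14 higher and 3 lower, where 32% of all genes were called (15.1% higher and 16.9% lower). The median was 0.60 over the 37 and 0.00 over all genes. Over the 37 it was 0.54 with the scanner's log ratio, 0.80 with median centring and 0.15 with the sample channel alone. Irf9 read -0.08, 0.18 and -0.10, above all tumors, with a difference of 1.23 (SE 0.23, adjusted p = 0.000334) that held in all 28 alternatives; its second probe, dim on many arrays, had a difference of -0.03. B2m read 0.58, 0.32 and 1.36 (difference 2.43, SE 0.42, adjusted p = 0.000122; other probes 3.06 and 1.27). Gbp3, a guanylate-binding protein, read -0.41 in all 3 livers, above the highest tumor (-1.46; difference 1.63, SE 0.46, adjusted p = 0.00848). Ifih1, Dhx58 and Zbp1 among the sensors, Isg15, the effectors Ifit1, Ifit3, Oas2, Oasl1 and Xaf1, and the GTPase genes Irgm1 and Iigp1 were also higher. Several of these calls depended on the setting. Of 28 alternatives, Irgm1 kept its call in 11, Iigp1 in 13, Isg15 in 14 and Dhx58 and Oasl1 in 15. Ifit1 and Zbp1 kept theirs in 18, Oas2 in 19, Gbp3 in 23, Ifih1 in 24, Xaf1 in 25 and Ifit3 in 26.

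Usp18 (-1.54, SE 0.33, adjusted p = 0.000941), Cxcl10 (-1.57, SE 0.42, adjusted p = 0.00607) and Trim25 (-0.57, SE 0.13, adjusted p = 0.00201) were lower after 12 weeks, and Rsad2 was not called (-1.01, adjusted p = 0.0513). With Myc tumors 3 and 4 averaged the calls of Irgm1 and Iigp1 were lost. The count was 8 without Myc off 12 weeks replicate 2, which had the highest Ifit1 (0.91) and Isg15 (0.40) of its group. The division was 6 and 5 with the scanner's log ratio, 8 and 5 without background subtraction, 6 and 4 with the sample channel alone and 8 and 0 with median centring. At equal spread it was 2 and 6. With scan day as a block it was 3 and 0. Between 4 and 12 weeks none of the 37 was called (0.00474% of all genes), with 2 higher and 0 lower at an unadjusted p under 0.05: Trim25 (0.42, adjusted p = 0.519) and Irf9 (0.71, adjusted p = 0.55).

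In the TGFα/c-Myc genotype the same steps called none of the 37 genes, at 4 weeks off (8.46% of all genes called, and 2 of the 37 higher and 2 lower at an unadjusted p under 0.05) or at 12 weeks (4.86%, 0 and 2). The genes with the smallest p were Irf9 at 4 weeks, at 0.47, 0.68 and 0.06 against -0.97, -0.04 and -0.14 in the tumors (difference 0.79, SE 0.28, adjusted p = 0.0798), and Ifi44 (-0.64, adjusted p = 0.099). At 12 weeks they were Rsad2, at -0.95, -0.63 and -1.46 against -0.11, 1.17 and -0.20 (difference -1.30, SE 0.46, adjusted p = 0.116), and Ifi44 (-0.56, adjusted p = 0.214). The median over the 37 was -0.04 at 4 weeks and -0.05 at 12 weeks, close to the 0.00 and -0.01 of all genes. These medians depended on the scaling. At 4 weeks the median was 0.53 with the scanner's log ratio (all genes 0.02) and 0.65 with median centring (all genes 0.12). At 12 weeks it was 0.19 and 0.43 in these settings. With the stricter filter on dim probes it was -0.05 at 4 weeks and -0.11 at 12 weeks. Between 12 and 4 weeks off both transgenes none was called (0.886% of all genes; 1 higher and 1 lower at an unadjusted p under 0.05). Cxcl10 had the smallest p there, at 0.44, 0.35 and -0.04 after 4 weeks and -1.54, -0.81 and -2.21 after 12, with no overlap (difference -1.77, SE 0.50, adjusted p = 0.0848).

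Whether the change off the transgenes differed between the genotypes was tested as a difference of changes, TGFα/c-Myc less Myc. At 4 weeks 5 of the 37 genes differed, 3 in the positive and 2 in the negative direction, where 14.5% of all genes were called (7.41% and 7.14%). Cxcl10 changed by -2.0 off c-Myc and by 0.98 off both transgenes, a difference of 2.98 (SE 0.65, adjusted p = 0.00423). Trim25 changed by -0.98 and -0.03 (difference 0.95, SE 0.20, adjusted p = 0.00371), and Usp18 by -1.97 and -0.30 (difference 1.67, SE 0.51, adjusted p = 0.0301). B2m changed by 2.33 and -0.17 (difference -2.50, SE 0.64, adjusted p = 0.0122), whereas another of its probes changed by 0.77 and 0.55, and Dhx58 by 0.66 and -0.61 (difference -1.27, SE 0.35, adjusted p = 0.0175). The count was 2 without TGFα/c-Myc tumor replicate 2 and 0 with median centring. At 12 weeks none was called (3.09% of all genes), with 1 positive and 10 negative at an unadjusted p under 0.05, and Oas2 the nearest (-0.98, SE 0.27, adjusted p = 0.0509). The share of all genes at that unadjusted threshold is not given here, so the 1 and 10 are no result about the 37. Without TGFα/c-Myc tumor replicate 1 the count at 12 weeks was 6, and without Myc tumor 5 it was 4.

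**Figure D4:**
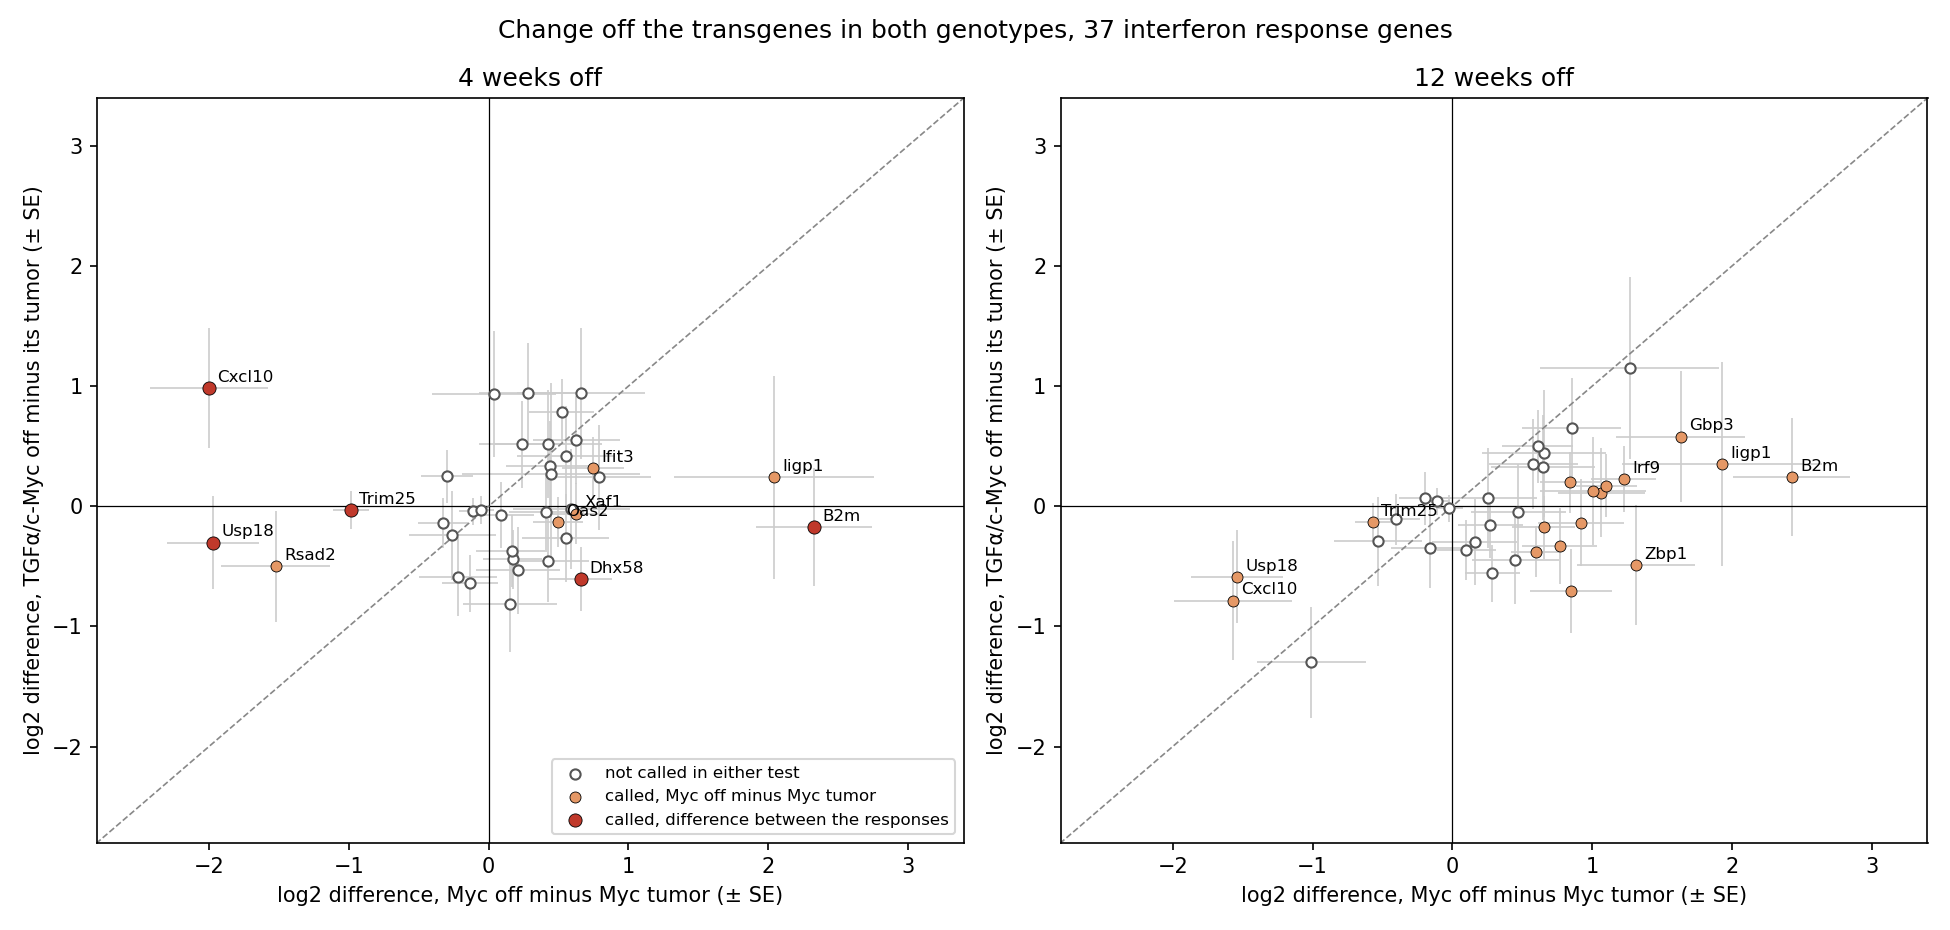
Log2 difference between livers off a transgene and the tumors of their genotype, with c-Myc alone on the horizontal and with TGFα/c-Myc on the vertical axis, at 4 and 12 weeks; each point is 1 of the 37 genes, bars are standard errors, and the dashed line marks equal change. Red points differ between the genotypes (5 at 4 weeks, none at 12), orange points were called for c-Myc alone, and called points are named (at 12 weeks only those beyond 1.2 or below 0 on the horizontal axis); the points spread more widely along the horizontal axis than along the vertical.

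Against control livers, livers with a transgene off had 1 call among 6 comparisons of 37 genes. Ddx58 was lower after 4 weeks off both transgenes, at 0.01, 0.37 and -0.40 against 0.90, 0.99 and 0.60, with no overlap (difference -0.84, SE 0.25, adjusted p = 0.0488; 5.54% of all genes called, 2.94% higher and 2.6% lower). This call was lost in 12 of 21 alternatives, among them without any 1 of the 3 controls and with the mean of a gene's probes. Over the alternatives the difference ran from -1.32 to -0.11. At its brightest probe, Ddx58 had differences between -0.83 and -0.60 in the other 5 off groups, none of them called. The 6 comparisons share the 3 controls. The other probes of Ddx58, which disagreed with this one in the Myc tumors, are not given singly for these groups. No gene was called after 12 weeks off both (0.019% of all genes; 2 higher and 2 lower at an unadjusted p under 0.05). None was called after 4 weeks (0.00474%; 1 and 2) or 12 weeks off c-Myc (0.161%; 7 and 2), or after 4 weeks (0.725%; 1 and 6) or 12 weeks off TGFα (0.0948%; 2 and 1).

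The smallest p of these was Irf1 after 4 weeks off TGFα, at -1.33 and -1.50 in the 2 livers against -0.22, 0.89 and 0.48, with no overlap (difference -1.79, SE 0.46, adjusted p = 0.0673). Usp18, the gene most raised in the tumors, was above all controls in the livers 12 weeks off c-Myc (-0.69, -0.49 and -0.15; difference 1.12, SE 0.39, adjusted p = 0.223). Mx2, an antiviral GTPase gene, read 0.79, 1.54 and 1.02 after 12 weeks off TGFα, where the highest control was 0.78 (difference 0.94, SE 0.44, adjusted p = 0.619). Between 12 and 4 weeks off TGFα none was called (0.919% of all genes; 4 higher and 1 lower at an unadjusted p under 0.05), and Trim25 had the smallest p (-0.52, SE 0.17, adjusted p = 0.17).

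Single livers stood apart in the GTPase genes, which were chosen here after their values were seen. Control 2 had the highest value of its group in all 6 genes of the interferon gamma group, with Igtp at 2.09, Irgm1 at 1.03, Iigp1 at 0.85, Gbp3 at 0.14, Gbp2 at -0.14 and Cxcl10 at -0.18. Replicate 2 of the livers 12 weeks off both transgenes had the highest Igtp (2.39), Iigp1 (1.27), Gbp2 (0.39) and Gbp3 (0.23) of all 31 arrays, while its group mates read -0.06 and -0.32 in Igtp and -1.19 and -1.41 in Iigp1. At the other end, Myc tumor 7 was the lowest of the 31 arrays in 14 of the 37 genes, among them Iigp1 (-5.24), Igtp (-2.49) and B2m (-3.20). The median of the 37 genes was -0.14 in control 2, against -0.76 and -0.74 in the other controls. In the named liver 12 weeks off both transgenes it was -0.12, against -0.54 and -0.71 in its group mates. This median did not set these livers apart from all arrays, as TGFα/c-Myc tumor 3 (-0.06) and Myc off 12 weeks replicate 3 (-0.11) were higher.

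**Figure D5:**
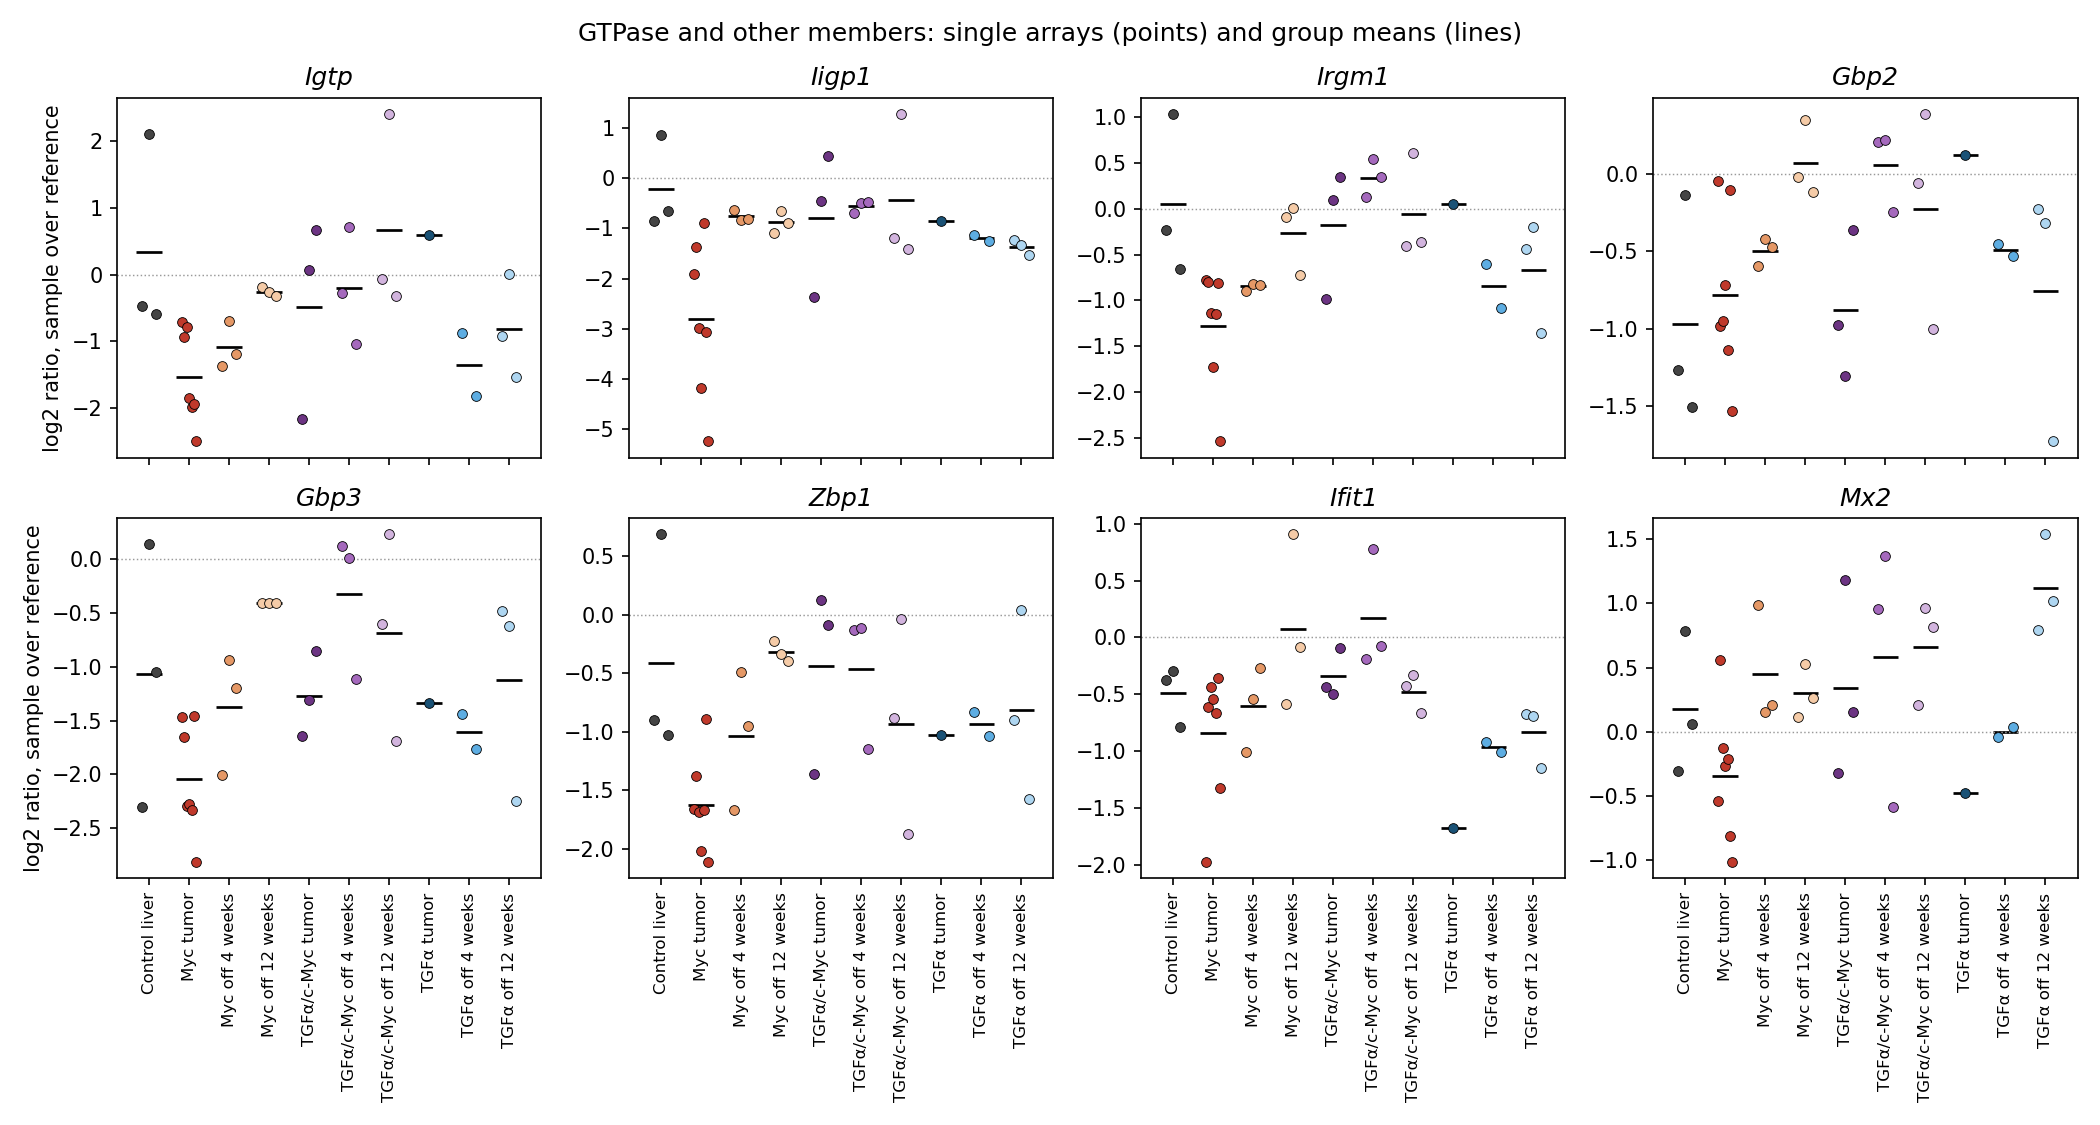
Log2 ratio of sample over reference (vertical axes, separate scales) for 5 GTPase genes of the interferon gamma group and for Zbp1, Ifit1 and Mx2 on the 31 arrays; each point is 1 array, each line a group mean. In Igtp, control 2 (2.09) and 1 liver 12 weeks off both transgenes (2.39) stand above all others, and in Iigp1 the Myc tumors reach down to -5.24.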

How the data were processed

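Per the labels, each sample's RNA was labelled with Cy3 and a C57BL/6 liver reference pool with Cy5. Per the file headers, the deposited scanner files of the 34 arrays hold spot intensity values for both channels and a log10 ratio of Cy5 over Cy3; the arrays were scanned on 12 days and read with several versions of the scanner software. The submitters' processing notes name limma, version not given. The series matrix that the authors deposited holds log2 ratios in the direction of the scanner's, Cy5 over Cy3, with a correlation to it over probes of 0.52 to 0.999 by array and column medians of -0.39 to 0.45, so its scaling and centring remain unknown. Their sign was turned here.

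Mean and median background intensities were corrected with normexp (offset 50) and normalised by loess within each array in limma 3.58.1 (R 4.3.3, statmod 1.5.0), because the scanner's own ratio came from different software settings. Values are log2 of Cy3 over Cy5. Spots of a probe were averaged, control and outlier spots left out, and each gene read at its brightest probe if its Cy3 signal stood well above background on 3 or more of 31 arrays. One model over all 31 arrays with a coefficient for each group was fitted with empirical Bayes moderation, and p-values were adjusted by Benjamini-Hochberg over all genes tested, with a threshold of 0.05. The fit was tested on simulated data in which arrays varied independently. That test held no shared slides or scan days, so it cannot speak to their effect on the calls. Of the groups, 16 pairs and 2 differences of changes were tested.

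The 37 genes, the pathway and cell lists and the tests were chosen with earlier results of these data known. Members called in a comparison and those with the smallest p are named, and values of single livers in the GTPase genes were chosen after they were seen. Counts at an unadjusted p under 0.05 are given without the share of all genes at that threshold. They are no result about the 37. Alternatives were other background corrections, scalings, filters, probe rules, sets of arrays and blocks, and leaving out each array. Promoters are the 250 bases before the start in RefSeq. Standard errors rest on the spread between the labelled biological replicates. The main model treats arrays of the same slide as independent, although the within-slide correlation was 0.433.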

Additional observations from a re-analysis of the deposited data

Results flagged for a closer look

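In 3 of the 37 genes 1 of the 7 Myc tumors lay far from the others, where chance sets about 1 in 20 groups apart. Trim25 read -0.078 in Myc tumor 5, below the other 6, which ran from 0.34 to 0.63. Oas3 read 0.45 and Oasl2 0.0094 in Myc tumor 6, both above the rest of the group.

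For 5 genes the change from tumor to the liver 4 weeks after shutdown differed between the TGFα/c-Myc and the Myc genotype in limma's test of that difference. The difference of changes was -2.50 for B2m, 2.98 for Cxcl10, -1.27 for Dhx58, 0.95 for Trim25 and 1.67 for Usp18.

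The 3 arrays of the slide without a liver profile hold values for the same genes that no comparison used. In the Cy3 channel alone, 24 of the 37 genes were above and 6 below all 3 controls in TGFα tumor 2. In TGFα tumor 3, 9 were above and 18 below, and in TGFα off 4 weeks replicate 1, 12 were above and 15 below. On the array of TGFα tumor 1, which had a liver profile, 10 were above and 8 below all controls. The same counts were not made over all genes, so these have no background to be read against.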

How the results depend on the processing

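Counts are genes called of the 37, as higher and lower where both occur. Of 297 counts under alternatives other than leaving out an array, 227 stayed within 1.5 times and 70 moved. The 227 include those from scaling mean intensities between arrays, which changes no ratio and so could not move a count. That setting is also 1 of the alternatives counted for single genes above. For Myc tumors against controls (17), the count was 5 with median centring, 11 in a fit of the compared groups only, 11 (1 and 10) with scan day as a block and 11 (8 and 3) at equal spread. For TGFα/c-Myc tumors against controls (1), it was 0 with median centring, all 34 arrays, the compared groups only or slide as a random block (within-slide correlation 0.433), and 2 at equal spread or without both tumors of low Myc. For TGFα/c-Myc against Myc tumors (13), it was 7 with the scanner's log ratio, no background subtraction, the series matrix or the sample channel alone, 6 with the slide block, 3 with the compared groups only, 1 with median centring, 0 with scan day, 2 at equal spread and 5 without the 3 arrays of narrow ratios. For c-Myc off 4 weeks against tumors (10), it was 6 with the scanner's log ratio, no background subtraction, the series matrix, all 34 arrays, the compared groups only or equal spread, 5 without the 3 arrays of narrow ratios and 4 with median centring. At 12 weeks (17) it was 11 with the scanner's log ratio or the series matrix, 10 with the sample channel alone or all 34 arrays, 8 with median centring or equal spread and 3 with scan day.

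For both transgenes off against their tumors (0), the count at 4 weeks was 2 with the scanner's log ratio or the series matrix and 3 with no background subtraction, the sample channel alone or equal spread, and at 12 weeks 4 at equal spread. Against controls 4 weeks off both (1) it was 0 with the scanner's log ratio, median centring, the series matrix, no filter, the mean of probes, the compared groups only or the slide block, 2 with no background subtraction or the stricter filter on dim probes, and 7 at equal spread. For 4 weeks off TGFα against controls it was 2, and for 12 against 4 weeks off TGFα 2, both at equal spread. For 12 against 4 weeks off both it was 1 with the scanner's log ratio, no background subtraction or the series matrix and 2 at equal spread. The difference of changes (5) at 4 weeks was called in 0 genes with median centring and 2 with the compared groups only; at 12 weeks (0) in 1 with no background subtraction, the series matrix or the mean of probes, in 3 with the stricter filter on dim probes and in 2 without the tumors of low Myc. Equal spread and leaving out the arrays of narrow ratios or the tumors of low Myc were chosen after seeing the data. Median centring without loess moved the median of all genes by up to 0.36. The scan day block could not be fitted in 6 comparisons, and scaling mean intensities between arrays changes no ratio.

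Leaving out 1 array gave 9 to 18 calls for Myc tumors against controls, 0 to 1 for TGFα/c-Myc tumors against controls, 3 to 15 between the tumors, 5 to 12 and 8 to 18 for c-Myc off 4 and 12 weeks against tumors, 0 to 1 for 4 weeks off TGFα and off both against controls, and 2 to 5 and 0 to 6 for the differences of changes. The other 9 comparisons stayed at 0.

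The labels do not say whether replicate numbers pair the samples. Of 63 pairs of arrays sharing a number in different groups, 27 had deviations from their group means correlated over 0.1 (median 0.0604, range -0.399 to 0.57). Arrays of different numbers were not compared, so this cannot decide whether the numbers pair the samples. With the replicate block the count was 2 for TGFα/c-Myc tumors against controls, 1 for 4 weeks off both against tumors, 2 for 4 weeks off TGFα and 5 for 4 weeks off both against controls, and 8 and 6 for the differences of changes at 4 and 12 weeks.

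Signs turned in 6 cases, none of them called then: Ifit3 at 4 weeks off c-Myc against tumors with the sample channel alone (-0.13) and at equal spread (-0.11), and, for Myc tumors against controls, Ifit3 at equal spread (0.084), Ddx58 as the mean of probes (0.026) and Rsad2 with scan day (-0.023). Usp18 between the tumors was 0.61 with scan day. Unless the construction shows it, the cause was not tested. Mx1 and Oas3 were near background on most arrays, and 3 arrays in most groups limit what can be called.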
